A study of Mus musculus with 14 samples.

Results

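The genes described here are 34 targets and partners of the tumour suppressor p53, followed through fetal ovaries of the mouse in which Coup-tfII (symbol Nr2f2), a nuclear receptor of interstitial and stromal cells, had been deleted. They were chosen by name, with earlier results of these data known. Shares of members set beside all genes below therefore describe this list and are no independent test of it. All probe sets whose only gene symbol in the platform annotation is one of these names were taken, which gave 61 of 45037 probe sets and 31 of the 34 genes. Trp53, which encodes p53 itself, Bax and Gdf15 matched no such probe set and were not analysed here. Of the 31 genes, 28 lay above the filter on low signals and were tested among 12406 genes, while Bbc3, Fas and Trp73 lay below it.

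p53 is a transcription factor that is kept scarce by the ubiquitin ligase Mdm2 and accumulates when DNA is damaged, when ribosome assembly or replication fails, or when growth signals clash. It then switches on genes that halt the cell cycle, genes that favour apoptosis, genes that help repair DNA, and genes such as Mdm2 that feed back to switch p53 off. In the fetal ovary germ cells enter meiosis and make programmed DNA breaks, and many of them die, while the somatic cells around them multiply and differentiate.

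Ovaries were taken on embryonic days E14.5 and E16.5. The earlier stage had 3 arrays of each genotype and the later stage 4, numbered in the labels as biological replicates. Knockout ovaries carried the tamoxifen-activated recombinase WT1-CreERT2 and floxed COUP-TFII alleles. The recombinase is driven at Wt1, a gene of the somatic and coelomic lineages of the gonad. Dams of all groups, controls included, were given tamoxifen, 2 mg per 10 g of body weight, on E11.5 and E12.5. All animals were of a mixed C57BL/6, Swiss Webster and B6129SF1/J background. The genotype behind the label control, including whether Cre was present, and any pooling of ovaries or litters are not stated in the sources used here. The p-values measure only the spread between these samples.

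RNA came from whole ovaries, so fewer cells of a type and less RNA per cell cannot be told apart in any value below. The tissue had its defining markers: Ddx4, Dazl and Sycp3 of germ cells and Foxl2 and Wnt4 of pre-granulosa cells were present on all 14 arrays. Of the Sertoli markers of fetal testis, Amh lay below the filter level on each array, while Sox9 read 235 to 368 on the E16.5 controls and Dmrt1 393 to 662 on the E14.5 controls. Median signal per array was 90.0 to 136, and log2 signals correlated at 0.969 to 0.982 for arrays of one group and at 0.858 to 0.877 for arrays of different stages. Nr2f2 checked the labels. Its probe set with the largest drop read 1797 to 2227 on the E16.5 controls and 270 to 409 on the E16.5 knockouts. At E14.5 the same probe set read 350 and 207 on control replicates 2 and 3 and 34.6, 65.6 and 79.1 on the knockouts, but 19.3 on the array labelled control replicate 1, so that this array went against its label there. The brightest Nr2f2 probe set fell without overlap at E16.5 but did not pass (-0.79 ± 0.22, limma adjusted p = 0.0753). Another, dim one did not fall there (78.8 to 112 on controls, 96.7 to 128 on knockouts). In the brightest, the array labelled E14.5 control replicate 1 read 217, within the knockout range of 155 to 267. In a further one it read 16.1, below the knockouts at 25.7 to 40.7. In 1 of the other Nr2f2 probe sets that array read 268, above the knockouts at 161 to 259 and in the direction of its label. The E14.5 changes of the members named with all their values are therefore also given without this array. At E16.5 knockout replicates 1 and 4 stood apart in the bioB hybridization control, at 10947 and 17637 against 4105 to 5747 on the other 6 arrays. The log2 difference between the 3' and 5' probe sets of Gapdh, a sign of RNA length, was also lower in all E16.5 knockouts (0.943 to 1.63) than in all E16.5 controls (1.67 to 1.83).

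The regulatory sequence of 4 members is shown first because p53 finds its targets through DNA, binding pairs of a sequence of 10 bases known as the p53 decamer. The 250 bases before the RefSeq gene start (GRCm38.p6) are printed 5' to 3' on the gene's strand, with matches to the decamer in capitals. Cdkn1a and Ccng1 are shown because both rose at E16.5 and both had a pair in this window, Eda2r because it rose with none, and Mdm2 because it is the classical feedback target and did not pass.
Cdkn1a: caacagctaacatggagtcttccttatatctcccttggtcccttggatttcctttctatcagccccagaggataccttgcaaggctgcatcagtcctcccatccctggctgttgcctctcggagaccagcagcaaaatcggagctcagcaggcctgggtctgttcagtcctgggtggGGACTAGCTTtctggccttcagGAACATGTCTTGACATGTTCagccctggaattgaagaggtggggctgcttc
Ccng1: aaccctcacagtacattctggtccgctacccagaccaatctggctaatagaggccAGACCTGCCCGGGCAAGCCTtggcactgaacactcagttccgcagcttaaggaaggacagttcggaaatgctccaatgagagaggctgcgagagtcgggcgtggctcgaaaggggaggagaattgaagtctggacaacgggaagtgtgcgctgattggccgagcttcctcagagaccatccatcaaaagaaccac
Eda2r: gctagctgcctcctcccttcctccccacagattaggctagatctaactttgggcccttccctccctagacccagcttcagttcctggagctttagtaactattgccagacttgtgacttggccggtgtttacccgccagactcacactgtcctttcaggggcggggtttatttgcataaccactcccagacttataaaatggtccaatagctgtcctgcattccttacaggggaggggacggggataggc
Mdm2: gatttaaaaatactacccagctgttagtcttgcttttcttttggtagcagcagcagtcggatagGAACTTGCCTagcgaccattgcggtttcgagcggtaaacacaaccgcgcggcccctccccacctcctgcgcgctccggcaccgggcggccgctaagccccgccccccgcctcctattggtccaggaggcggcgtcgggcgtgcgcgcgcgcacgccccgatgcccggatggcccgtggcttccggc
The Cdkn1a stretch lies at chr17:29090729-29090978 on the plus strand, Ccng1 at chr11:40755287-40755536, Eda2r at chrX:97377210-97377459 and Mdm2 at chr10:117710759-117711008, all 3 on the minus strand.

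RefSeq gives Cdkn1a more than one start. In the window shown the pair of adjacent decamers, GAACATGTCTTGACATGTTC, began at position -51 relative to that start and differed from the consensus at 1 base, while the other Cdkn1a window, at chr17:29093519-29093818, had no decamer. The Ccng1 pair, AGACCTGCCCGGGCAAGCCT, began at position -195 and also had 1 mismatch. The Mdm2 window had a single decamer, GAACTTGCCT, and no pair, and the Eda2r window had neither. The known p53-responsive promoter of Mdm2 lies inside the gene, outside the stretch shown. A window from 250 bases before to 50 after the gene start was available for 26 members. Zmat3 and Pmaip1, which also rose in a knockout comparison, had no such window and were not searched. A pair with at most 2 mismatches, the central C and G of each decamer kept, was found in 3 of the 26 (Ccng1, Cdkn1a and Trp73) against 0.392% of 27025 genes, and a perfect single decamer in 11 of 26 (42.3%) against 9.55%. The decamer reads the same on both strands, so both were searched. These matches describe letters in a window, and many known p53 sites lie outside such windows.

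At E16.5 Ccng1, Cdkn1a, Eda2r and Zmat3 rose in the knockout ovaries, by log2 changes of 0.85 to 1.24, and no member fell. These 4 of 28 tested members compare with 0.967% of all 12406 genes called higher at this stage, by limma with a Benjamini-Hochberg adjusted p under 0.05. A further 8 members were higher at an unadjusted p under 0.05, which makes 12 of 28 against 11.4% of all genes. Gadd45a was lower at this level, 1 of 28 against 6.89%. All knockout arrays lay above all controls in 8 of 28 members, against 6.22% of all genes. The log2 change was positive in 22 of 28 members against 58.9% of all genes, with a median of 0.23 in the members and 0.053 over all genes.

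At E14.5 only Pmaip1 rose (1 of 28 against 0.0403% of all genes, which is 5 genes), and again no member fell. At an unadjusted p under 0.05, 8 of 28 members were higher against 5.45% of all genes, and 0 of 28 lower against 3.10%. All knockout arrays lay above all controls in 10 of 28 members against 7.84% of all genes, and below them in 0 against 4.90%. The log2 change was positive in 21 of 28 members against 55.3%, with a median of 0.16 in the members and 0.028 over all genes. In 5 members, Ccng1, Zmat3, Eda2r, Phlda3 and Aen, the groups separated in this way at both stages, against 0.975% of all genes. This holds for the brightest probe set of each gene. In the other probe sets of Ccng1 and Aen the groups overlapped at E14.5, at E16.5 or at both.

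**Figure D1:**
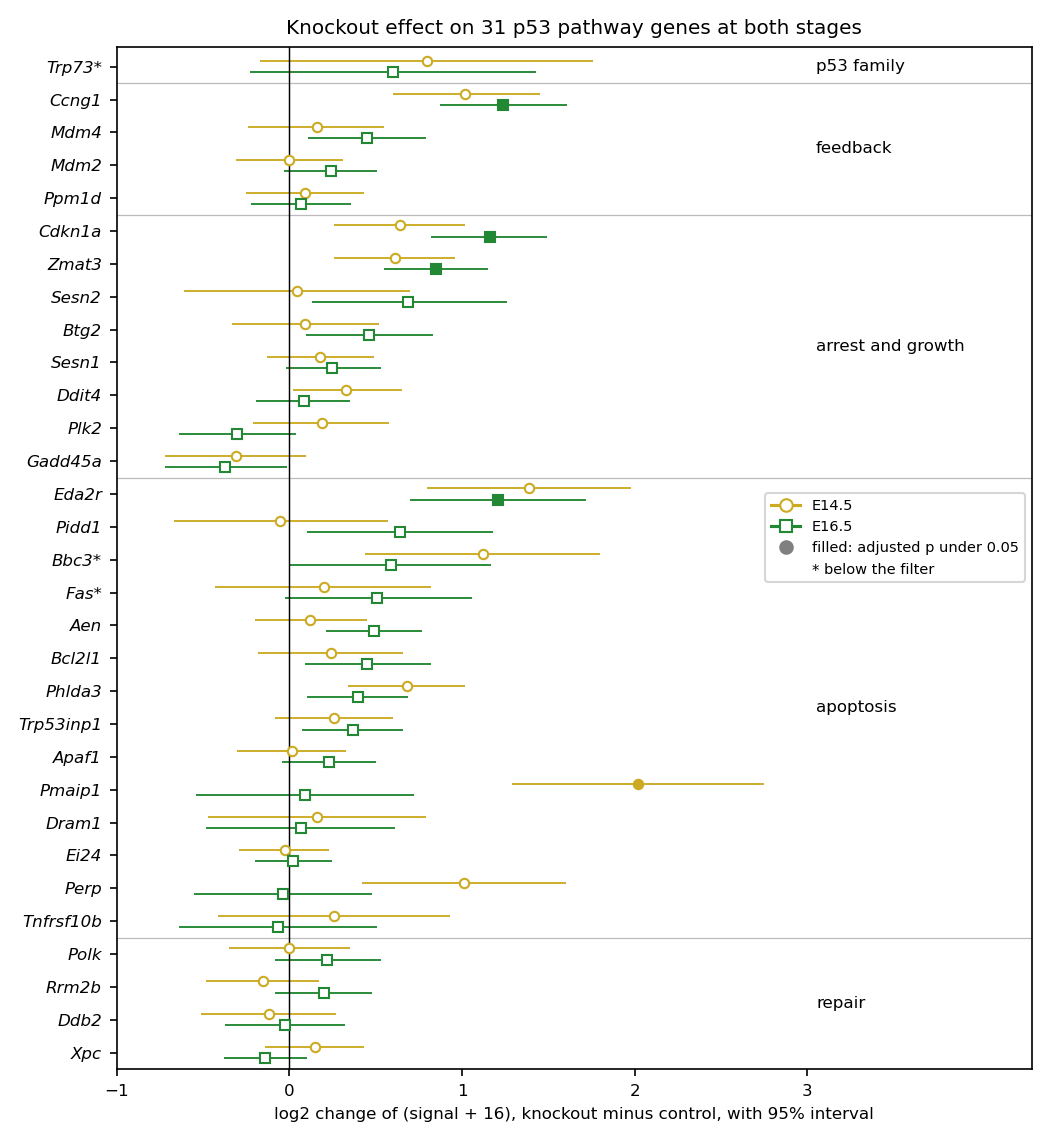
Log2 change of signal plus 16, knockout minus control, of the 31 measured genes, ordered by role, with 95% intervals; circles are E14.5 (3 against 3 arrays), squares E16.5 (4 against 4), filled points have an adjusted p under 0.05, and genes with an asterisk lay below the filter. Most points lie to the right of 0, the 4 filled squares are Ccng1, Cdkn1a, Zmat3 and Eda2r, the filled circle is Pmaip1, and the repair genes at the bottom lie within 0.22 of 0.

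The feedback genes are switched on by p53 and restrain it. Ccng1, which encodes cyclin G1, a partner of protein phosphatase 2A that acts on Mdm2, read 2945, 1621 and 1345 on the E14.5 controls and 4087, 3879 and 3455 on the E14.5 knockouts. At E16.5 it read 911, 987, 936 and 951 on the controls and 2576, 1982, 2459 and 2060 on the knockouts. The groups were fully apart at both stages, and the array labelled E14.5 control replicate 1 was the one nearest to the knockouts. The log2 change at E16.5 was 1.24 ± 0.17 (SE, n = 4 per group, 95% interval 0.87 to 1.61, limma adjusted p = 0.00345). At E14.5 it was 1.02 ± 0.20 (n = 3 per group), which did not pass (limma adjusted p = 0.102), and 1.35 ± 0.14 without the array labelled control replicate 1, which did (limma adjusted p = 0.000333).

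Mdm2, the ligase that marks p53 for destruction and itself a p53 target, did not pass at either stage. It read 1034, 1095 and 837 on the E14.5 controls and 891, 1116 and 948 on the E14.5 knockouts, with the groups overlapping. At E16.5 it read 1504, 1332, 1827 and 1755 on the controls and 1784, 2079, 1682 and 2011 on the knockouts, again overlapping. The log2 changes were -0.0022 ± 0.15 (95% interval -0.31 to 0.31) and 0.24 ± 0.13 (95% interval -0.031 to 0.51). Both intervals leave out a doubling. The other probe sets of Mdm2 had 0.017 and -0.32 at E14.5 and -0.12 and 0.19 at E16.5, and none passed. Mdm4, a relative of Mdm2 that blocks p53's activation domain, had log2 changes of 0.16 ± 0.19 and 0.45 ± 0.16 (limma adjusted p = 0.161 at E16.5). Another Mdm4 probe set above the filter level, the brighter one at E16.5, had 0.11 ± 0.15 and 0.015 ± 0.13. Ppm1d, the phosphatase Wip1 that removes the activating phosphates of the damage response, had 0.091 ± 0.16 and 0.068 ± 0.14. So 1 of these 4 feedback genes passed as higher at E16.5 and 0 at E14.5, against 0.967% and 0.0403% of all genes. Their median log2 changes were 0.34 and 0.12.

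Among the genes of arrest and growth restraint, Cdkn1a and Zmat3 rose at E16.5, 2 of 8 tested against 0.967% of all genes. Cdkn1a encodes p21, the inhibitor of cyclin-dependent kinases through which p53 stops the cycle. It read 464, 452, 457 and 391 on the E16.5 controls and 1008, 1135, 1045 and 838 on the knockouts, so that the lowest knockout was well above the highest control. The means were 441 ± 33.9 and 1006 ± 124 (SD, n = 4 per group), and the log2 change was 1.16 ± 0.16 (SE, limma adjusted p = 0.00273). At E14.5 it read 537, 342 and 394 on the controls and 673, 811 and 524 on the knockouts. Knockout replicate 3 there lay below control replicate 1, and the change of 0.64 ± 0.18 did not pass (limma adjusted p = 0.313). It was 0.82 ± 0.18 without the array labelled control replicate 1 (limma adjusted p = 0.135) and 0.80 ± 0.19 without knockout replicate 3 (limma adjusted p = 0.0433). Leaving out any other single E14.5 array gave a smaller change, 0.49 to 0.63, that did not pass. A dimmer Cdkn1a probe set read 127, 96.2, 157 and 205 on the E16.5 controls and 561, 318, 354 and 553 on the E16.5 knockouts. Its log2 change of 1.51 ± 0.23 passed among single probe sets (limma adjusted p = 0.00515), of which 0.537% were called higher at E16.5 and 0.0148% at E14.5.

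Zmat3, an RNA-binding zinc finger protein induced by p53, read 447, 447 and 394 on the E14.5 controls and 554, 827 and 635 on the knockouts. At E16.5 it read 269, 285, 352 and 323 on the controls and 549, 564, 496 and 654 on the knockouts. No knockout overlapped a control at either stage. The E16.5 change of 0.85 ± 0.14 passed (limma adjusted p = 0.00714), and the E14.5 change of 0.61 ± 0.17 did not (limma adjusted p = 0.281). Without E16.5 knockout replicates 1 and 4 the E16.5 change was 0.76 ± 0.17 and did not pass (limma adjusted p = 0.117).

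The other genes of this role did not pass. Sesn2, a sestrin that restrains growth signalling through mTORC1, read 122 to 189 on the E16.5 controls and 190 to 386 on the knockouts, with a log2 change of 0.69 ± 0.27 (limma adjusted p = 0.185). Btg2, an antiproliferative partner of the deadenylase complex, had 0.46 ± 0.17 at E16.5 (limma adjusted p = 0.172). Sesn1, another sestrin, had 0.18 ± 0.15 at E14.5 and 0.25 ± 0.13 at E16.5. Ddit4, an inhibitor of mTORC1 signalling also known as Redd1, had 0.33 ± 0.15 and 0.083 ± 0.13. Both Sesn1 and Ddit4 had all knockouts above all controls at E14.5 and overlapped at E16.5. The other Sesn1 probe sets above the filter level had 0.23 and 0.054 at E14.5 and -0.002 and 0.022 at E16.5, with overlap at both stages. A pair of genes pointed down at E16.5. Plk2, a polo-like kinase, read 866 to 1078 on the controls and 672 to 843 on the knockouts, the only tested member whose knockouts all lay below the controls at this stage (-0.30 ± 0.16, limma adjusted p = 0.333, against 4.22% of all genes). Gadd45a, a growth arrest and stress protein, had -0.37 ± 0.17 (limma adjusted p = 0.257) at E16.5 and -0.31 ± 0.19 at E14.5.

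**Figure D2:**
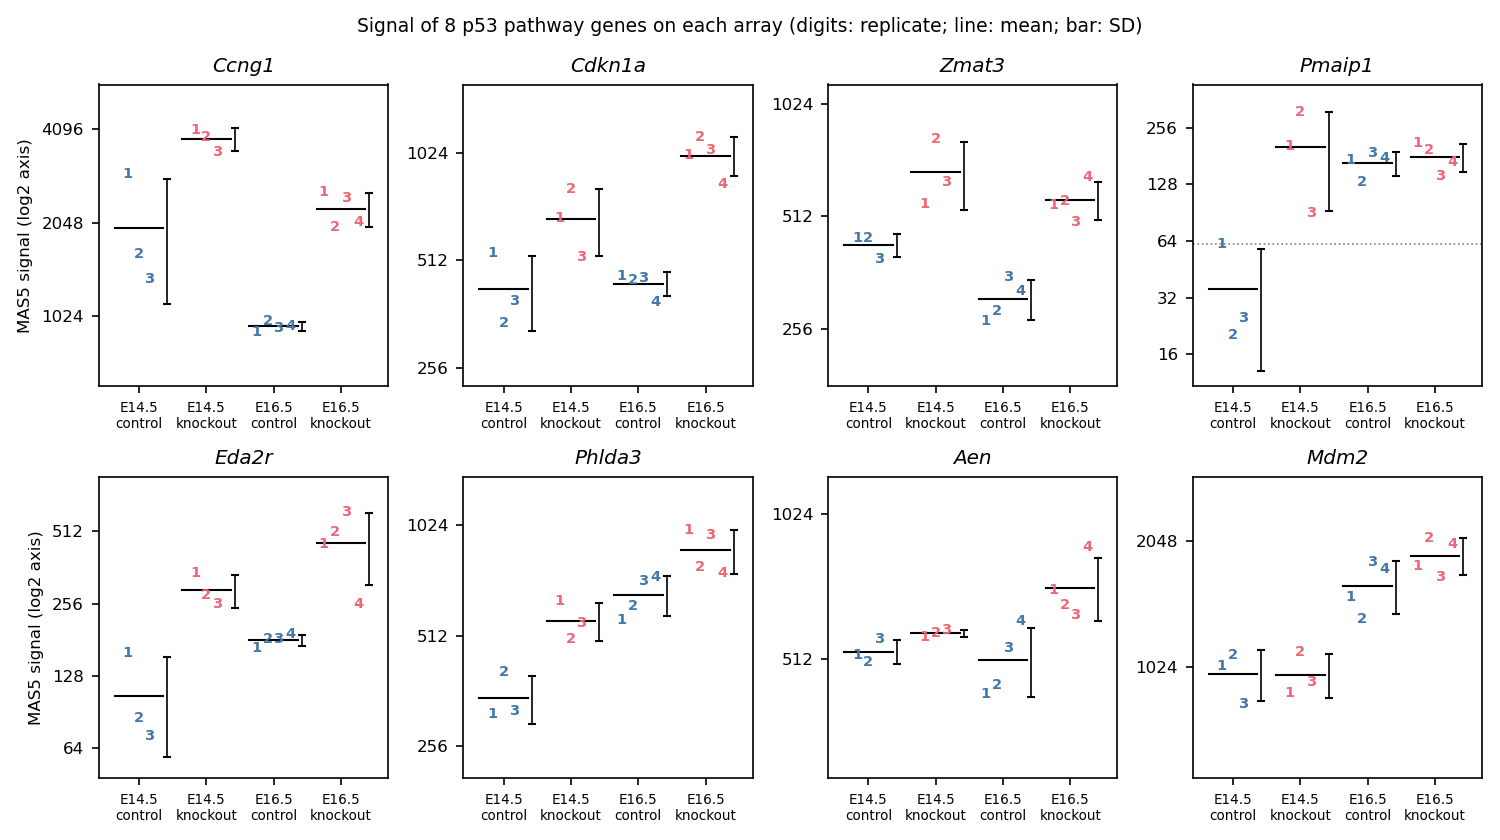
MAS5 signal on a log2 axis of 8 genes on each of the 14 arrays; digits are replicate numbers, blue for controls and red for knockouts, horizontal lines are group means, bars are SD, and the dotted line marks the filter level of 62.0. Ccng1, Zmat3, Eda2r, Phlda3 and Aen have all knockouts above all controls at both stages, Cdkn1a overlaps at E14.5, Pmaip1 overlaps at E16.5, and Mdm2 overlaps at both.

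Of 12 tested genes of apoptosis, Pmaip1 rose at E14.5 and Eda2r at E16.5, against 0.0403% and 0.967% of all genes. Pmaip1 encodes Noxa, a BH3-only protein that neutralises Mcl1. It read 61.6, 20.3 and 24.9 on the E14.5 controls and 206, 311 and 90.6 on the knockouts, without overlap. All 3 control values lay below the filter level of 62.0, where the size of a log2 change depends on the pseudocount. The change was 2.02 ± 0.35 (SE, n = 3 per group, 95% interval 1.29 to 2.75, limma adjusted p = 0.0473), and 1.35 ± 0.25 with a pseudocount of 64 (limma adjusted p = 0.11). It was 2.36 ± 0.35 without the array labelled control replicate 1 (limma adjusted p = 0.0102), and it passed in 6 of the 26 alternatives in which it was tested. At E16.5 Pmaip1 read 172, 132, 188 and 177 on the controls and 212, 195, 142 and 169 on the knockouts, with a log2 change of 0.091 ± 0.30 (95% interval -0.54 to 0.72). Both E16.5 groups lay within the range of the E14.5 knockouts, and the E14.5 controls alone were low. That sets signals of different stages side by side, and stage cannot be told apart from the Gapdh 3' to 5' difference.

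Eda2r, a receptor of the tumour necrosis factor family that binds ectodysplasin A2, read 160, 85.2 and 72.0 on the E14.5 controls and 342, 277 and 254 on the knockouts. At E16.5 it read 167, 182, 182 and 191 on the controls and 451, 510, 616 and 255 on the knockouts. The groups did not overlap at either stage, and the controls at E16.5 were much tighter than the knockouts (180 ± 10.0 against 458 ± 152, SD). The E16.5 change of 1.21 ± 0.24 passed (limma adjusted p = 0.0182), and the E14.5 change of 1.39 ± 0.28 did not (limma adjusted p = 0.102). Without the array labelled E14.5 control replicate 1 the E14.5 change was 1.69 ± 0.28 and passed (limma adjusted p = 0.0227). Of the 8 fits that each left out an E16.5 array, 4 lost the E16.5 call (controls 1, 2 and 3 and knockout 1), at limma adjusted p of 0.0524 to 0.0617 and changes of 1.17 to 1.21.

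Phlda3, a PH-domain protein that opposes Akt, read 314, 407 and 320 on the E14.5 controls and 635, 501 and 554 on the knockouts. At E16.5 it read 565, 619, 721 and 740 on the controls and 992, 788, 966 and 758 on the knockouts. The groups were apart at both stages, by a narrow margin at E16.5, and neither change passed (0.68 ± 0.16, limma adjusted p = 0.224, and 0.40 ± 0.14, limma adjusted p = 0.152). Aen, a nuclease induced by p53, read 523, 506 and 564 on the E14.5 controls and 570, 582 and 588 on the knockouts. Its E16.5 values were 435, 453, 540 and 616 on the controls and 714, 663, 634 and 876 on the knockouts. It too was apart at both stages, with log2 changes of 0.12 ± 0.15 and 0.49 ± 0.13 (limma adjusted p = 0.864 and 0.0717). The other Aen probe sets above the filter level had -0.015 and 0.15 at E14.5 and 0.18 and 0.39 at E16.5, and none passed. Aen shows that separated groups need not differ by much: at E14.5 the highest control and the lowest knockout were 564 and 570.

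Perp, a tetraspan membrane protein of desmosomes and a p53 target, read 58.0 to 123 on the E14.5 controls and 184 to 236 on the knockouts, a log2 change of 1.01 ± 0.28 (limma adjusted p = 0.297). At E16.5 the groups overlapped (136 to 245 and 111 to 218), with -0.034 ± 0.24. Trp53inp1, a stress protein of the nucleus, had 5139 to 6123 on the E16.5 knockouts against 3915 to 4643 on the controls (0.37 ± 0.14, limma adjusted p = 0.179). Pidd1, the scaffold of caspase 2 activation, had 0.64 ± 0.25 at E16.5 and -0.051 ± 0.29 at E14.5, with overlap at both. Bcl2l1, which encodes the survival protein Bcl-xL and opposes apoptosis, had 0.45 ± 0.17 at E16.5 (limma adjusted p = 0.179), with overlap. Its other probe sets above the filter level had 0.26 ± 0.26 and 0.032 ± 0.34 there, also with overlap. Apaf1, the core of the apoptosome, had 0.018 ± 0.15 and 0.23 ± 0.13. Ei24, Dram1 and the death receptor gene Tnfrsf10b had log2 changes of -0.064 to 0.26 over both stages, and their groups overlapped.

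Bbc3, Fas and Trp73 were dim and were read only in a fit without the filter. Bbc3, which encodes the BH3-only protein Puma, read 134, 63.4 and 78.4 on the E14.5 controls and 149, 308 and 199 on the knockouts, without overlap (1.12 ± 0.32, limma adjusted p = 0.308). At E16.5 it read 8.65 to 16.3 on the controls and 12.9 to 39.5 on the knockouts. The death receptor gene Fas had 0.20 ± 0.30 and 0.51 ± 0.26, and Trp73, the p53 relative, had 0.80 ± 0.46 and 0.60 ± 0.40. None of these 3 passed at either stage, in a fit that called 0.044% of 18193 genes higher at E14.5, and 0.500% at the later stage.

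The repair genes showed the smallest changes of the roles. Xpc and Ddb2, damage sensors of nucleotide excision repair, Polk, a polymerase that copies past lesions, and Rrm2b, the p53-inducible subunit of ribonucleotide reductase, had log2 changes of -0.15 to 0.15 at the earlier stage and -0.14 to 0.22 at the later one. Of these 4 genes 0 passed in limma at either stage, and 0 had an unadjusted p under 0.05. Over all genes that level was reached by 5.45% higher and 3.10% lower at E14.5, and by 11.4% and 6.89% at E16.5. Xpc read 355 to 377 on the E14.5 controls and 405 to 412 on the knockouts, a separation of 0.15 ± 0.13. Its groups overlapped at E16.5, at -0.14 ± 0.12. Rrm2b had -0.15 ± 0.15 at E14.5 and 0.20 ± 0.13 at E16.5, and its 95% interval at each stage left out a doubling. The median log2 changes by role at E16.5 were 0.34 for feedback, 0.36 for arrest, 0.30 for apoptosis and 0.086 for repair, and whether the roles differ was not tested.

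Whether the knockout effect itself differed from one stage to the other was tested for each member. Of 28 members 0 passed in limma, as did 0% of all genes. At an unadjusted p under 0.05 Cdkn1a had a larger change at E16.5, 1 of 28 against 4.74% of all genes. Pmaip1 and Perp had a smaller one, 2 of 28 against 4.17%. Cdkn1a differed by 0.52 ± 0.24 (limma adjusted p = 0.552), Pmaip1 by -1.93 ± 0.46 (limma adjusted p = 0.398) and Perp by -1.05 ± 0.37 (limma adjusted p = 0.525). For Ccng1 the difference was 0.22 ± 0.27, for Zmat3 it was 0.24, and for Eda2r it was -0.19 ± 0.37. That Pmaip1 passed at E14.5 and the other 4 genes at E16.5 is therefore not shown to be a difference between the stages.

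The E14.5 counts moved with single arrays. Over the 7 genes named with all their values other than Mdm2, the array labelled control replicate 1 was the highest of the 3 controls in 5, and its median lay 0.35 above the control mean on the log2 scale. The other controls lay at -0.20 and -0.12 and the knockouts at 0.66 to 0.93. These 7 genes were picked for passing or for separated genotypes, which by itself places the knockouts high. Over all 28 tested members the other controls lay at -0.019 and -0.11 and the knockouts at 0.13 to 0.20. The array labelled control replicate 1 lay at 0.066 there and was the highest control in 13 of 28. Without that array 3 members passed at E14.5, Ccng1, Eda2r and Pmaip1, and 23 genes in all. All knockouts then lay above both remaining controls in 14 of 28 members, against 13.4% of all genes. Among those that did not pass, the changes were 0.64 ± 0.19 for Zmat3, 0.62 ± 0.18 for Phlda3, 0.11 ± 0.18 for Aen, 0.034 ± 0.17 for Mdm2 and 1.19 ± 0.31 for Perp, beside that of Cdkn1a given above. Mdm2, Sesn2 (-0.21 ± 0.33), Apaf1 (-0.057 ± 0.17), Ei24 (0.087 ± 0.13) and Polk (0.0031 ± 0.19) changed sign, and the repair genes had -0.12 to 0.12. Without knockout replicate 3, the lowest knockout in 4 of the 7 genes, Ccng1, Cdkn1a, Eda2r and Pmaip1 passed, and 179 genes in all. Without any other single array, those of E16.5 included, 0 members passed at E14.5.

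The E16.5 counts moved less. Without knockout replicates 1 and 4, Ccng1, Cdkn1a and Eda2r passed, with log2 changes of 1.21, 1.28 and 1.56, among 16 genes in all. Knockout replicates 2 and 3 alone lay above all controls in 11 of 28 members, against 1432 of 12406 genes. With the Gapdh difference as a covariate Ccng1 (1.35, limma adjusted p = 0.0417) and Cdkn1a (1.36, limma adjusted p = 0.0153) passed among 18 genes in all. Eda2r (1.55, limma adjusted p = 0.0542) and Zmat3 (0.85, limma adjusted p = 0.0967) did not.

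**Figure D3:**
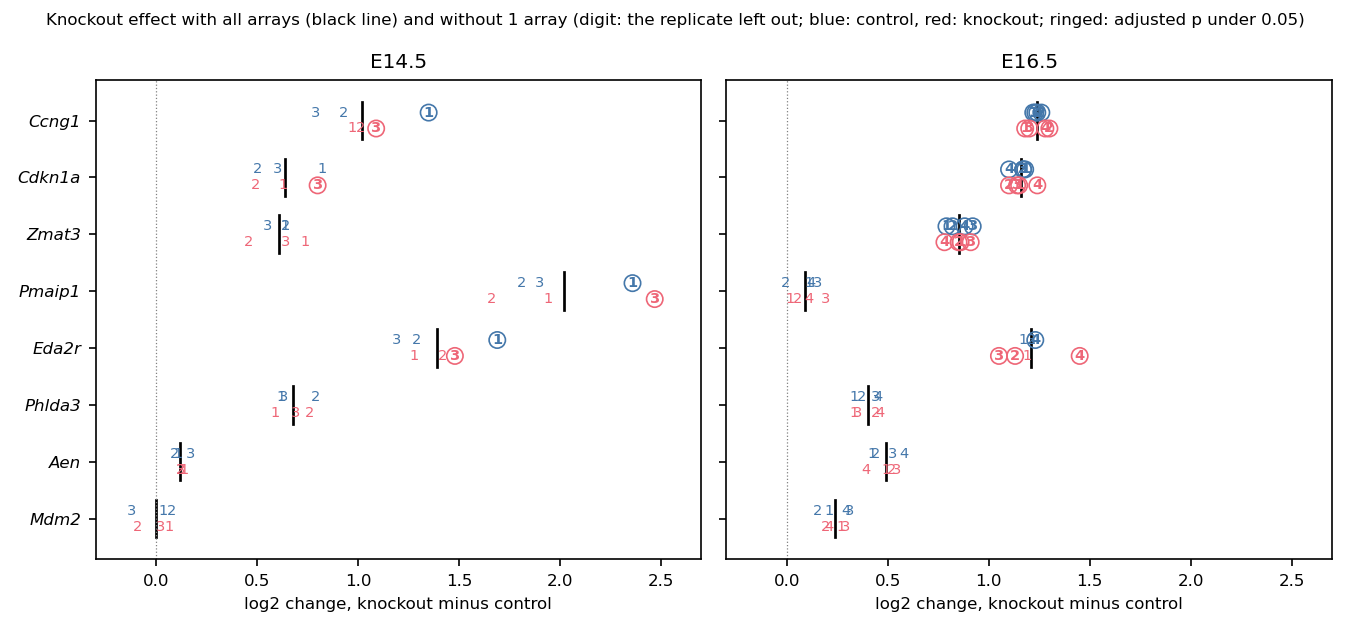
Log2 change, knockout minus control, of 8 genes at each stage with all arrays (black line) and without 1 array of that stage (digits give the replicate left out, blue control and red knockout, ringed where the adjusted p was under 0.05). At E16.5 every ring of Ccng1, Cdkn1a and Zmat3 is present and their changes stay close to the line, while at E14.5 the rings appear without control replicate 1 or knockout replicate 3.

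Probe sets of 1 gene gave a second look at each change. Of the 28 tested members 16 had several probe sets above the filter level. Their knockout changes had a single sign within a gene in 9 of 16 genes at E14.5 and, later, in 12 of 16, and no gene was called in both directions. At E14.5 the probe sets of Bcl2l1 went from -0.46 to 0.24 and those of Trp53inp1 from -0.43 to 0.26. The 3 probe sets of Ccng1 had changes of 0.72 to 1.02 at E14.5, where only the brightest had its groups apart. At E16.5 they had 1.24, 1.05 and 0.46, of which the first and the next passed among single probe sets (limma adjusted p = 0.00396 and 0.0379) and the last did not (0.33). That last probe set read 2469 to 2972 on the E16.5 controls and 2546 to 5117 on the knockouts, with overlap.

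In controls, 21 of 28 members differed between the stages by limma, against 64.4% of all genes. At E16.5 9 were higher, against 28.5%, and 12 lower, against 35.9%. Pmaip1 rose with stage by 1.90 ± 0.32, Tnfrsf10b by 2.01 ± 0.30 and Ppm1d by 1.69 ± 0.15, while Mdm4 fell by 1.31 on the log2 scale, Rrm2b by 1.19 and Ccng1 by 0.96. These values depend on the probe set. In 7 of the 16 members with several, 1 probe set was called higher and another lower, against 31.9% of 6143 such genes. The probe sets of Ccng1 went from -0.96 to 2.82, those of Mdm4 from -1.31 to 2.39 and those of Bcl2l1 from -0.84 to 3.76. With the Gapdh difference, which lay at -0.421 to -0.0589 in E14.5 controls and 1.67 to 1.83 in E16.5 controls, as a covariate, 0 members passed. Stage and this difference cannot be told apart, and the stage values are therefore not used further.

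**Figure D4:**
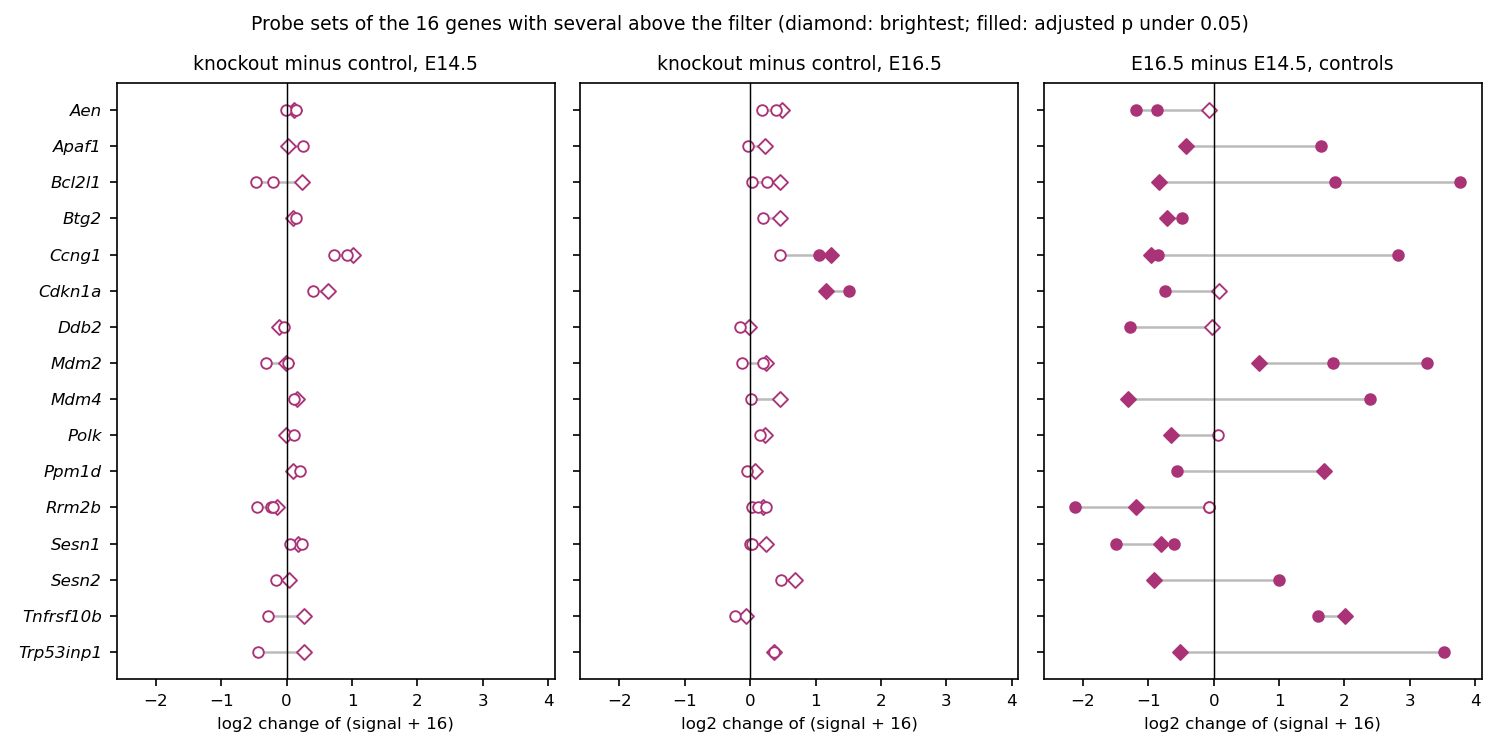
Log2 change of each probe set of the 16 genes with several above the filter level, for knockout against control at E14.5 and E16.5 and for E16.5 against E14.5 in controls; diamonds are the brightest probe sets, which stand for the gene, and filled points have an adjusted p under 0.05 among single probe sets. The knockout changes have a single sign in 9 of 16 genes at E14.5 and, later, in 12 of 16, and none is filled on both sides of 0, while the stage changes of 7 genes are.

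Other genes of the pathway were read from lists. Among 24 tested genes of damage signalling, from the kinases Atm and Atr to the adaptors at breaks, 0 passed in limma at either stage, and the median log2 change was -0.037 at E14.5 and 0.0037 at E16.5. At an unadjusted p under 0.05, 3 of the 24 were lower and 0 higher at E16.5, against 6.89% and 11.4% of all genes. The ubiquitin ligase gene Rnf8 had -0.30 ± 0.11 (limma adjusted p = 0.171). Nbn of the MRN complex, which senses double-strand breaks, had 886 to 1093 on the E16.5 knockouts and 1122 to 1246 on the controls (-0.26 ± 0.11, limma adjusted p = 0.22).

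Of 20 tested genes of break and crosslink repair 0 passed either, with medians of -0.12 and 0.047. An unadjusted p under 0.05 was reached by 1 lower gene at E14.5, against 3.10% of all genes. At E16.5 it was reached by 2 higher and 1 lower, against 11.4% and 6.89%. Lig4, the ligase of end joining, read 518 to 561 on the E16.5 controls and 328 to 466 on the knockouts (-0.50 ± 0.15, limma adjusted p = 0.0933). Rad54l, a motor protein of homologous recombination, had -0.61 ± 0.23 at E14.5 (limma adjusted p = 0.444). Its E16.5 change was -0.24.

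A further 15 tested p53 targets outside the 34 genes had medians of 0.17 and 0.19, beside 0.028 and 0.053 over all genes, and 0 passed in limma. Of these 2 were higher at an unadjusted p under 0.05 at E14.5 and 3 at E16.5, against 5.45% and 11.4% of all genes. Steap3, a metalloreductase, read 22.3 to 51.6 on the E14.5 controls and 64.8 to 114 on the knockouts (0.81 ± 0.30, limma adjusted p = 0.432). Ak1, adenylate kinase, had 0.59 ± 0.29 and 0.57 ± 0.25 at the earlier and the later stage (limma adjusted p = 0.611 and 0.248).

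Genes of the cell cycle that p53 is known to lower through p21 and the DREAM repressor complex were read as a further list. Of 19 tested 0 passed at either stage in limma, with medians of -0.032 and -0.0072. An unadjusted p under 0.05 was reached by 0 at E14.5. At E16.5 it was reached by 1 higher and 1 lower gene, against 11.4% and 6.89% of all genes. Mybl2, a DREAM target, had 0.70 ± 0.28 (limma adjusted p = 0.199), and Cdc20, the mitotic activator of the anaphase-promoting complex, had -0.29 ± 0.14 (limma adjusted p = 0.271) at E16.5.

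Markers of other cell types moved with the knockout. All 5 surface epithelium markers were above the controls at both stages without overlap, against 0.975% of all genes. Their summed signals were 3755 to 4774 in E14.5 controls against 5888 to 8782 in knockouts. At E16.5 the sums were 4593 to 5723 and 7609 to 11394, and Krt19 (1.24, limma adjusted p = 0.0173) and Upk1b (1.01, limma adjusted p = 0.0438) rose. The 5 adrenal cortex genes summed to 385 to 683 in E14.5 controls against 736 to 998 in knockouts. At E16.5 the sums were 315 to 423 and 780 to 1109, and 2 of the 3 tested, Mc2r and Hao2, rose, against 0.967% of all genes. The 5 measured interstitial markers, Nr2f2 among them, summed to 10663 to 12031 in E16.5 controls and 4852 to 7444 in knockouts, with Pdgfra and Wnt5a past the threshold as lower, and overlapped at E14.5. The 6 germ cell markers overlapped between genotypes at both stages, at 49156 to 57802 against 38307 to 53197 and at 9725 to 13519 against 10497 to 13388. None of them passed in limma, but 4 of the 6 were lower at E14.5 at an unadjusted p under 0.05, against 3.10% of all genes. Sums of pre-granulosa, macrophage, red cell, mesonephric and Sertoli markers also overlapped at both stages, but single markers stood apart. At E16.5 C1qb of macrophages rose (0.82, limma adjusted p = 0.048), and C1qa and C1qc had all knockouts above all controls. Pax8 and Cdh16 of mesonephric epithelium were also above, and Foxl2 of pre-granulosa cells was below without overlap (-0.83, limma adjusted p = 0.0504). Endothelial sums were higher in the E16.5 knockouts, 3254 to 4177 against 2779 to 3152, but the markers went both ways, since Plvap rose (1.18, limma adjusted p = 0.0111) and Tek fell (-0.68, limma adjusted p = 0.0255). Without the array labelled E14.5 control replicate 1, the E14.5 interstitial sums no longer overlapped (9031 to 9429 in controls against 4960 to 6225). Nor did the mesonephric ones (5209 to 5525 against 4034 to 4589), and the other 8 lists overlapped or stood apart as with it. The mesonephric sum is mostly Emx2, with a mean of 4554 in all E14.5 controls against 109 for Pax8 and 44.8 for Cdh16. With all arrays the E14.5 changes were -0.14 for Emx2 but 0.33 for Pax8 and 1.04 for Cdh16, all with overlap. The part of these shifts in marker signal, and of the Gapdh difference, in the changes of Ccng1, Cdkn1a, Eda2r and Zmat3 was not tested.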

How the data were processed

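The authors deposited a linear intensity for each probe set. The submitters' processing notes name MAS5 and Affymetrix Expression Console, without versions. The trimmed mean of each array, with 2% left out at both ends, was 500, so arrays had been scaled to that target, which removes any global difference in RNA amount. Values were taken as log2(signal + 16), on which changes of dim genes are understated. The brightest of a gene's probe sets stood for it, and genes above the 40th percentile of mean signal (about 62.0) were tested. A model with 4 groups was fitted to 14 arrays with limma 3.58.1 (eBayes with trend) and data.table (version 1.17.8) in R 4.3.3, two-sided, with Benjamini-Hochberg adjustment over 12406 genes and a threshold of 0.05. The fit was tested on simulated data. Promoter windows were RefSeq's (GRCm38.p6), and figures used matplotlib 3.10.9 in Python 3.11.15.

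Values in every array are given for members past the threshold, for those separated at both stages, and for Mdm2. Of each other list the 2 smallest p are given where none passed. Members, roles and lists were chosen with earlier results of these data known. Alternatives changed the pseudocount, scaling, filter, probe set, spread model, threshold, covariate, block and arrays. Replicate numbers were not used to pair samples in the main fit. Deviations of same-numbered arrays correlated at -0.0478 to 0.161 at the earlier stage and -0.00217 to 0.43 at the later one. Arrays of different numbers were not compared in this way, so whether the numbers mark pairs was not settled. The number of arrays limits the precision.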

Additional observations from a re-analysis of the deposited data

Results flagged for a closer look

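The Cdkn1a signal of E16.5 control replicate 4 stood apart from its group, at 391 against 452 to 464 on the other 3 arrays. The gap to its nearest neighbour was 0.849 of the group's range, above Dixon's 95% critical value for 4 samples. Of 16 groups examined this way it was the only one beyond that value, and chance flags about 1 in 20 groups. Leaving this array out kept the Cdkn1a call.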

How the results depend on the processing

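The count of 1 member at E14.5 (Pmaip1) became 0 with a pseudocount of 64, quantile normalization, median centring, the 60th percentile filter, every probe set tested on its own, eBayes without trend, the Gapdh covariate, only the arrays of E14.5, or without both E16.5 knockout replicates 1 and 4, and 2 with the replicate block (Ccng1 and Pmaip1, both at limma adjusted p = 0.0475). Leaving out 1 array gave 0 to 4 members at E14.5, 3 to 4 at E16.5, 0 to 1 for the difference between stages (Pmaip1 without E14.5 knockout replicate 3) and 18 to 22 for stage in controls. With the Gapdh covariate the E16.5 count of 4 became 2 and the stage count of 21 became 0. The replicate block gave 5 members at E16.5, adding Trp53inp1. At E16.5 Ccng1 (0.92 to 1.35) and Cdkn1a (1.08 to 1.36) passed in all 27 alternatives, Zmat3 (0.76 to 0.92) in 25 and Eda2r (1.04 to 1.56) in 22. Pmaip1 at E14.5 (1.35 to 2.47) passed in 6 of the 26 it could be tested in. Changes near 0 turned sign: Pmaip1 at E16.5 ranged from -0.0073 to 0.19 without 1 array (negative without control replicate 2), and Mdm2 at E14.5 was 0.0052 with the Gapdh covariate and ranged from -0.12 to 0.075 without 1 array. Over all genes, the 5 called at E14.5 ranged from 0 to 179, and the 176 at E16.5 became 279 with quantile normalization, 293 with the block, 466 at a threshold of 0.10 and 43 to 494 without 1 array. The causes were not tested. Another scaling moved the median change of all probe sets by under 0.1.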
